A study of Sus scrofa with 12 samples.

Results

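The giant and scaffold proteins of the sarcomere were examined in longissimus dorsi, the loin muscle, of 12 Iberian pigs. The set was chosen by gene symbol and holds titin (TTN), nebulin (NEB), slow and fast myosin-binding protein C (MYBPC1 and MYBPC2), the myomesins MYOM1 and MYOM2, alpha-actinin-2 (ACTN2), LDB3 and filamin C (FLNC). Rows carrying 7 of these 9 symbols were found among 25880 genes, and all 7 were among the 13373 genes with enough counts to be tested. TTN and LDB3 were not analysed here. The High MB group held the 6 pigs with high estimated breeding values for muscle myoglobin content and the Low MB group the 6 with low values. All 12 were castrated males of the Iberian breed, from a closed commercial population, fattened outdoors on acorns and grass until slaughter, and full siblings were avoided. They were sampled as finished animals at slaughter, and individual ages were not used here. Muscle myoglobin averaged 2.48 ± 0.0657 mg/g for High MB pigs and 1.39 ± 0.147 mg/g for Low MB pigs (SD, n = 6 each). The groups differ by selection on breeding value, so any other trait carried along with it cannot be told apart from myoglobin content, and each pig gave 1 RNA library.

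A sarcomere is the contractile unit of striated muscle, with actin thin filaments anchored in Z-discs at its ends and myosin thick filaments crosslinked at the M-band in its middle. Nebulin lies along the thin filament and helps to set its length. Myosin-binding protein C forms stripes on the thick filament and tunes myosin activity, with a slow form encoded by MYBPC1 and a fast form encoded by MYBPC2. The myomesins bridge neighbouring thick filaments at the M-band. Alpha-actinin-2 crosslinks actin in the Z-disc, and filamin C is an actin crosslinker at the edge of the Z-disc and at the sarcolemma that gathers where myofibrils are damaged. The pig longissimus is a mainly fast-fibred muscle.

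The 7 genes were counted under the Ensembl identifiers ENSSSCG00000016397 (NEB), ENSSSCG00000000866 (MYBPC1), ENSSSCG00000003218 (MYBPC2), ENSSSCG00000003693 (MYOM1), ENSSSCG00000015747 (MYOM2), ENSSSCG00000010144 (ACTN2) and ENSSSCG00000016578 (FLNC), and their positions are given on Sscrofa11.1. NEB lies at chr15:546187-766131 and MYOM2 at chr15:33529559-33606928, both on the plus strand. MYBPC2 lies at chr6:55281991-55310184 and MYOM1 at chr6:103451206-103593093, also on the plus strand. MYBPC1 (chr5:82557975-82651237), ACTN2 (chr14:54670727-54742717) and FLNC (chr18:19759734-19787616) are on the minus strand. Their annotated exons together span from 3.81 kb for MYBPC2 and 4.31 kb for MYBPC1 to 9.28 kb for FLNC and 23.0 kb for NEB, whose longest RefSeq transcript has 163 exons. The 250 bases before the RefSeq gene start of 6 of the genes (all but MYOM1) were searched on both strands for the muscle E-box CAGCTG, the MCAT element CATTCC, the TATA box TATAAA, the MEF2 site and the CArG box, the last 2 by their degenerate patterns. The 3 windows with a match are printed because they separate the members by the muscle motif letters they carry, with the matched letters in capitals, 5′ to 3′ on the gene's own strand. None of the matches overlapped another.
MYBPC1: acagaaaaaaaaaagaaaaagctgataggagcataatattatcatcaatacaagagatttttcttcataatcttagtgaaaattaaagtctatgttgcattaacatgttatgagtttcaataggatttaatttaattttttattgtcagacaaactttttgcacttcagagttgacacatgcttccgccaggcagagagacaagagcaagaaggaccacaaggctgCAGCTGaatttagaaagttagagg
MYOM2: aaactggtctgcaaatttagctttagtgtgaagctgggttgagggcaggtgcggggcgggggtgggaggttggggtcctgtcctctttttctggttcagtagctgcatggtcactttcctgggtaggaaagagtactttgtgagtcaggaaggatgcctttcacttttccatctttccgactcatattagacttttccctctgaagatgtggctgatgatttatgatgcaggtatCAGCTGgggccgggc
FLNC: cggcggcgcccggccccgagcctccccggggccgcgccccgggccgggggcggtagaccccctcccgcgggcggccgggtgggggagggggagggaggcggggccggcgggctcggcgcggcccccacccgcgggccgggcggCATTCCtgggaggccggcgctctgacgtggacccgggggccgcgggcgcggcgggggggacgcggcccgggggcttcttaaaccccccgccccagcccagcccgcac
These windows are chr5:82651238-82651487 for MYBPC1, chr15:33529309-33529558 for MYOM2 and chr18:19787617-19787866 for FLNC, with starts taken from RefSeq genes on the same build. The muscle E-box was found 19 bases before the start of MYBPC1 and 10 bases before that of MYOM2, and 13.6% of 19531 promoters held it. FLNC carried an MCAT element at 102 bases, and 10.3% of promoters held one. The MEF2 site (2.55% of promoters), the CArG box (1.31%) and the TATA box (9.76%) were in none of the 6 windows. These matches describe letters only, and annotated starts may lie away from the start used in muscle.

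Gene counts per library ran from 38914271 to 91318334. Above 50000000 lay 5 libraries, 2 of the High MB and 3 of the Low MB group, and the other 7 formed a standard depth class. The 7 genes took 2.18% to 3.59% of the counts of a pig and were covered by at least 17859 reads each in every pig, so counting error was small beside the spread between pigs. High MB pig 2 and Low MB pig 4 stood apart in the whole expression profile, with median distances to the other pigs of 99.2 and 88.9 on the log2 scale over all genes tested, against 69.7 to 82.6 for the other pigs. Fast fibre markers (4 genes measured) summed to 18278 CPM (the counts-per-million unit, with library sizes scaled by TMM factors) in High MB pig 2 and to 30578 to 41815 CPM in the other pigs. Values of the 7 genes are therefore also given without one or both of them.

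Per kilobase of exon, MYBPC2 had the highest median of the 7, 1560 CPM per kb over the 12 pigs (range 679 to 2221), and was above ACTN2 in all 12. FLNC exceeded it in High MB pig 2 (1196 against 679 CPM per kb) and Low MB pig 4 (1665.5 against 1341 CPM per kb). ACTN2 (median 544 CPM per kb), FLNC (510 CPM per kb) and MYBPC1 (500.1 CPM per kb) followed with overlapping ranges. ACTN2 was above FLNC in 7 pigs and FLNC above MYBPC1 in 4, so the order of these neighbours was not set beyond their spread. NEB (median 316 CPM per kb) and MYOM2 (307 CPM per kb) also overlapped, with NEB higher in 7 of 12 pigs. MYOM1 was lowest, at 133 CPM per kb (range 64.3 to 158), and below MYOM2 in all 12.

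The comparison of the groups asks which muscle transcripts go with a high or low genetic value for myoglobin. None of the 7 genes was called different between the groups (edgeR quasi-likelihood test, Benjamini-Hochberg adjusted p under 0.10 and a log2 fold change (log2 FC, High MB minus Low MB) beyond 0.58). The same held for the whole table, where 0 of 13373 genes (0%) were called, while 1132 genes had an unadjusted p under 0.05 and DESeq2 called 29 genes, 0 of them among the 7. Fold changes were below 0 in 6 of the 7, with MYBPC1 the exception (the same split under each scaling tried), and the median of the 7 was -0.17, beside a median of -0.016 over all genes tested, of which 46.9% were above 0. With library totals in place of TMM factors the median of the 7 was -0.098, against 0.080 over all genes, with NEB at -0.098, MYOM1 at -0.12, MYOM2 at -0.097, ACTN2 at -0.093 and FLNC at -0.17. MYOM2 was at -0.10 with upper quartile factors. Adjusted p ran from 0.716 to 0.885. Because the tissue was bulk muscle, fewer fibres of a type and less RNA per fibre cannot be told apart. The p-values measure the spread between 6 pigs per group.

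**Figure D1:**
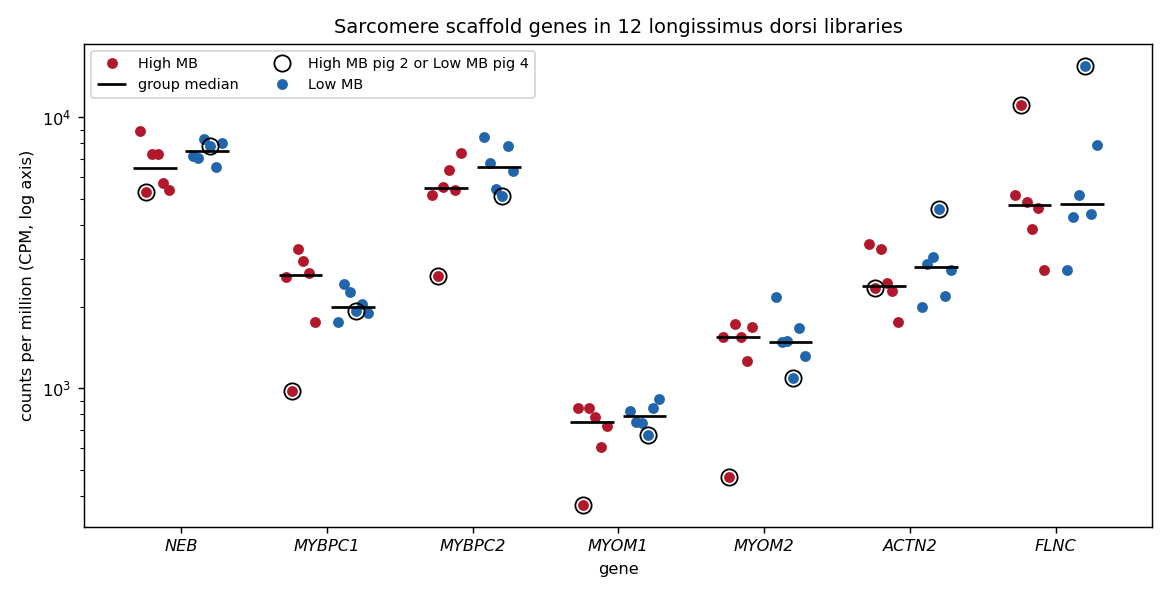
CPM (log axis) of the 7 genes in each of 12 pigs, High MB in red and Low MB in blue, with the group median as a bar and the pigs that stood apart ringed. The groups overlap in all 7 genes, and they fail to overlap in only 0.426% of all 13373 genes tested. The ringed pigs give the highest FLNC values (11100.2 and 15459 CPM).

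NEB ran from 5317 to 8856 CPM in the High MB pigs (median 6516) and from 6574 to 8332 CPM in the Low MB pigs (median 7529). The High MB pigs spread more widely, with 3 below every Low MB pig and 1 above them all with TMM scaling. With library totals only High MB pig 6 lay below every Low MB pig (12.42 log2 CPM, against 12.52 in Low MB pig 5). Means were 6656 ± 1411 and 7509.6 ± 662 CPM (SD, n = 6 each), a log2 FC of -0.17 (SE 0.16, 95% interval -0.51 to 0.16, edgeR adjusted p = 0.773). It was -0.097 without High MB pig 2, -0.27 without High MB pig 1 and -0.079 without both pigs that stood apart.

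MYBPC1, the slow myosin-binding protein C, ran from 976 to 3268 CPM in the High MB pigs (median 2617) and from 1757 to 2413 CPM in the Low MB pigs (median 1990.2). Of the High MB pigs, 4 lay above every Low MB pig and 2 below. High MB pig 6 was below only by 1756.2 against 1757.0 CPM in Low MB pig 1, and above that pig with library totals (10.805 against 10.672 log2 CPM). The log2 FC was 0.21 (SE 0.23, 95% interval -0.29 to 0.70, adjusted p = 0.836). Without the pigs that stood apart it was 0.37 (SE 0.16, unadjusted p = 0.0379, adjusted p = 0.608, edgeR), which did not pass. It was 0.39 without High MB pig 2 alone, 0.13 without High MB pig 4 and 0.091 without High MB pig 3. Within the depth classes the group difference was 0.26 among deep and -0.019 among standard libraries (log2 scale). The other 6 genes were below 0 in both classes, from -0.49 (FLNC, deep) to -0.062 (MYOM2, deep).

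MYBPC2, the fast form, ran from 2585 to 7376 CPM in the High MB pigs (median 5460.5) and from 5105 to 8454 CPM in the Low MB pigs (median 6568). The groups overlapped, and High MB pig 2 was lowest by a wide gap. Means were 5408 ± 1605 and 6658 ± 1312 CPM, a log2 FC of -0.30 (SE 0.22, adjusted p = 0.716, edgeR). It was -0.13 without High MB pig 2 and -0.20 without both pigs that stood apart. The 5 deep libraries held 6347 to 8454 CPM of MYBPC2 and the standard ones 2585 to 6788 CPM. Within the depth classes the group difference was -0.12 among deep and -0.36 among standard libraries (log2 scale). With depth class as a covariate the log2 FC was -0.23 (edgeR adjusted p = 0.684).

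The paired genes can be read as a ratio within each pig. MYBPC1 over MYBPC2, per kilobase, was 0.2105 to 0.523 in the High MB pigs (median 0.423) and 0.184 to 0.367 in the Low MB pigs (median 0.289), and 4 of 6 High MB pigs lay above every Low MB pig. The High MB exceptions were pigs 2 (0.334) and 6 (0.2105). The lowest ratios were all in deep libraries, High MB pig 6 and Low MB pigs 1 (0.184), 5 (0.232) and 6 (0.265). The other deep library, High MB pig 4, had 0.408. Standard libraries ran from 0.314 (Low MB pig 2) to 0.523 (High MB pig 3), and the part of depth in the ratio was not tested. This ratio was chosen after its values were seen, so it is described without a test. Slow fibre markers, the genes of slow-twitch contraction, summed to 6433 to 12555 CPM in the High MB and 4842 to 8404 CPM in the Low MB pigs. All 6 measured had a log2 FC above 0 (median 0.54), 5 with an unadjusted p under 0.05, where 5.33% of all genes tested had such a p on the higher side, and 0 were called. TNNI1 and TNNC1, slow troponins, each had a log2 FC of 0.58 (SE 0.18 and 0.17), and ATP2A2, the slow calcium pump, had the lowest of the 6 (0.34, SE 0.28, edgeR unadjusted p = 0.249). MYH7 was not analysed here. Of 4 fast fibre markers, 4 had a log2 FC below 0 with TMM scaling (median -0.10), against 2 with library totals and 2 without the pigs that stood apart, and ATP2A1, the fast calcium pump, had -0.44 (SE 0.20, edgeR unadjusted p = 0.044, adjusted p = 0.578), where 3.13% of all genes tested were lower with an unadjusted p under 0.05. TNNT3, a fast troponin, had the highest of the 4 (-0.033, SE 0.18, edgeR unadjusted p = 0.853). The share of these fibre markers in the ratio was not tested.

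**Figure D2:**
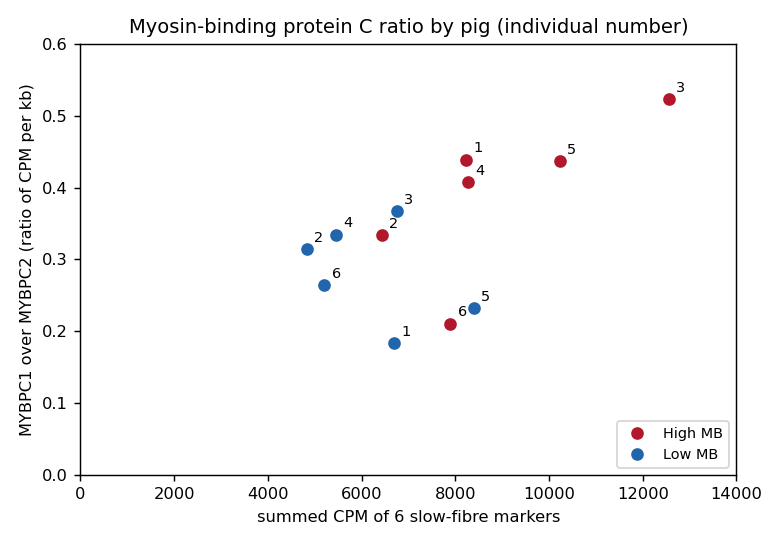
Ratio of MYBPC1 to MYBPC2 (CPM per kb) against the summed CPM of 6 slow fibre markers, 1 point per pig with its individual number, High MB in red and Low MB in blue. The highest ratio (0.523) and the highest marker sum (12555 CPM) are both High MB pig 3, and the lowest ratio (0.184) is Low MB pig 1.

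Of the M-band genes, MYOM1 ran from 371 to 843 CPM in the High MB pigs (median 753) and from 672 to 910 CPM in the Low MB pigs (median 787). High MB pig 2 gave the lowest value. The log2 FC was -0.19 (SE 0.18, adjusted p = 0.791, edgeR), against -0.037 without High MB pig 2 and -0.076 without both pigs that stood apart. MYOM2, the M-protein of fast fibres, ran from 471 to 1721 CPM (median 1541) in the High MB and from 1085 to 2164 CPM (median 1485) in the Low MB pigs. Its log2 FC was -0.16 (SE 0.26, adjusted p = 0.885, edgeR), and it was 0.037 without High MB pig 2, -0.041 without Low MB pig 1, -0.041 without both pigs that stood apart and -0.11 with depth class as a covariate.

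Of the Z-disc genes, ACTN2 ran from 1752 to 3406 CPM in the High MB pigs (median 2389.7) and from 1989 to 4575 CPM in the Low MB pigs (median 2798). The log2 FC was -0.17 (SE 0.21, adjusted p = 0.856, edgeR), and it was 0.028 without Low MB pig 4 and 0.062 without both pigs that stood apart. The single pigs whose omission moved it most on the lower side were High MB pig 1 (-0.26) and Low MB pig 1 (-0.25), and without High MB pig 6 it was -0.077. Deep libraries held 1752 to 2732 CPM and standard ones 2281 to 4575 CPM, and with depth class as a covariate the log2 FC was -0.24 (edgeR adjusted p = 0.655). FLNC varied most, from 2724 to 11100.2 CPM in the High MB pigs (median 4731) and from 2724 to 15459 CPM in the Low MB pigs (median 4793). The group medians were close, and each group had 1 pig far above its others. The log2 FC was -0.30 (SE 0.40, adjusted p = 0.860, edgeR), and without Low MB pig 4 it was 0.15. Without High MB pig 2 it was -0.64, without both -0.18, without Low MB pig 1 -0.47 and without High MB pig 6 -0.17. With depth class as a covariate it was -0.46 (edgeR adjusted p = 0.678).

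**Figure D3:**
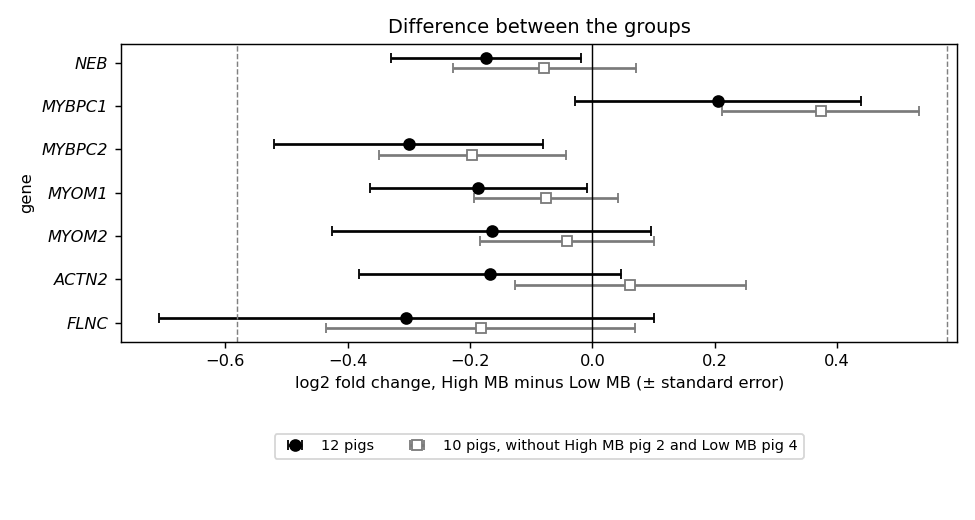
Log2 FC (High MB minus Low MB) of each gene with its standard error, in all 12 pigs (filled) and without the pigs that stood apart (open). Dashed lines mark 0.58 in either direction, and all values lie between them, from -0.30 (MYBPC2, FLNC) to 0.37 (MYBPC1 without those pigs).

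High MB pig 2 and Low MB pig 4, from different groups, were both at the same end of the range for 3 of the 7 genes. Both had more FLNC (11100.2 and 15459 CPM) than any other pig, the rest reaching 7893 CPM, and both had less MYBPC2 and MYOM2 than any other. High MB pig 2 was also the lowest pig for NEB (not with library totals), MYBPC1 and MYOM1, and Low MB pig 4 the highest for ACTN2. Low MB pig 4 lay above the median of the 12 pigs for NEB, and High MB pig 2 below it for ACTN2 with TMM scaling. High MB pig 2 had the largest TMM factor (1.21, against 0.891 to 1.03 in the other pigs), which lowers its values. With library totals its NEB (12.66 log2 CPM) was above that of High MB pig 6 (12.42). Its ACTN2 (11.47 log2 CPM) then lay above the median of the 12 pigs. Among 21 Z-disc partners tested, 6 were higher in both than in the other pigs, where 9.92% of all genes tested were. These were XIRP1 (2212 and 1651 CPM against 234 to 891), XIRP2 (5507 and 10114 against 2039.9 to 5215), NRAP (2848 and 5688 against 913 to 2350.0), BAG3 (650 and 751 against 197 to 415), CRYAB (5572 and 6525 against 1023 to 3326) and CAPZA1. XIRP1 and XIRP2 are Xin repeat proteins that bind actin with filamin C, and BAG3 and CRYAB are chaperones of the Z-disc. MYOZ3 and PDLIM7 were lower in both, where 7.87% of all genes were. These genes and pigs were looked at after their values were seen. The myeloid and leukocyte markers summed to 98.4 CPM in High MB pig 2 and 51.9 CPM in Low MB pig 4, against 25.1 to 79.2 CPM in the others.

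**Figure D4:**
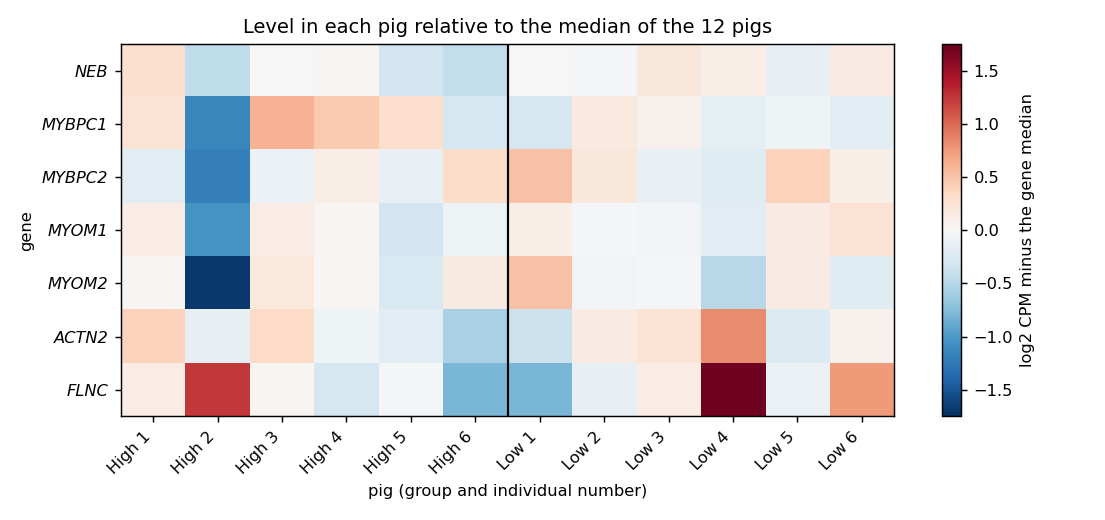
Level of each gene (rows) in each pig (columns, High MB left of the line) as log2 CPM minus the gene's median over the 12 pigs, red above and blue below. High MB pig 2 is low in MYBPC1, MYBPC2, MYOM1 and MYOM2 and high in FLNC, and Low MB pig 4 is highest in FLNC.

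Across the 12 pigs, 8 of 21 pairs of the 7 genes varied together (Pearson r of log2 CPM, permutation test with 100000 resamples, Benjamini-Hochberg adjusted p under 0.10), 6 with a positive and 2 with a negative r. Spearman's rho also passed for 5 of the 8. The share of pairs of other genes that would pass was not computed, so the count is a description. The strongest was MYBPC2 with MYOM2, the fast thick-filament and fast M-band genes (r = 0.92, permutation adjusted p = 0.0134; rho = 0.71, adjusted p = 0.0792). It was 0.90 in deep and 0.93 in standard libraries, and 0.52 without the 2 pigs farthest from the median of MYBPC2. Of the 8 pairs, 6 had the same sign of r in both depth classes. The exceptions were MYOM1 with MYOM2 (-0.35 in deep and 0.97 in standard libraries) and MYBPC2 with MYOM1 (-0.17 and 0.88). Within the groups 7 of the 8 had the same sign, and NEB with MYOM1 did not (r = 0.72 in the High MB and -0.25 in the Low MB pigs). FLNC went the other way, with r = -0.74 to MYOM2 (permutation adjusted p = 0.0443; rho = -0.69, adjusted p = 0.0792) and r = -0.70 to MYBPC2 (adjusted p = 0.0443; rho = -0.85, adjusted p = 0.0139). Without the 2 farthest pigs these were -0.80 and -0.55. NEB and ACTN2 had r = 0.68 (permutation adjusted p = 0.0443, rho = 0.72), and 0.58 without the 2 farthest. The other 4 pairs, MYOM1 with MYOM2 (0.89), MYBPC2 (0.83) and NEB (0.65), and ACTN2 with FLNC (0.67), had r of 0.38, 0.30, 0.48 and 0.23 without the 2 pigs farthest from the median of the first gene of each tested pair. Without High MB pig 2 and Low MB pig 4 no pair passed. The r over the remaining pigs was then 0.78 for NEB with ACTN2, 0.70 for ACTN2 with FLNC, 0.63 for MYBPC2 with MYOM2, 0.62 for NEB with MYOM1, -0.60 for MYBPC2 with FLNC and -0.70 for MYOM2 with FLNC. It was 0.36 for MYOM1 with MYOM2 and 0.23 for MYBPC2 with MYOM1, and these last pairs rest on the pigs left out. Among the pairs that had not passed over 12 pigs, MYBPC2 with ACTN2 was then strongest (-0.75, against -0.30 over 12 pigs). MYBPC1 with MYBPC2 came next and changed sign (-0.69, against 0.46 over 12 pigs).

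**Figure D5:**
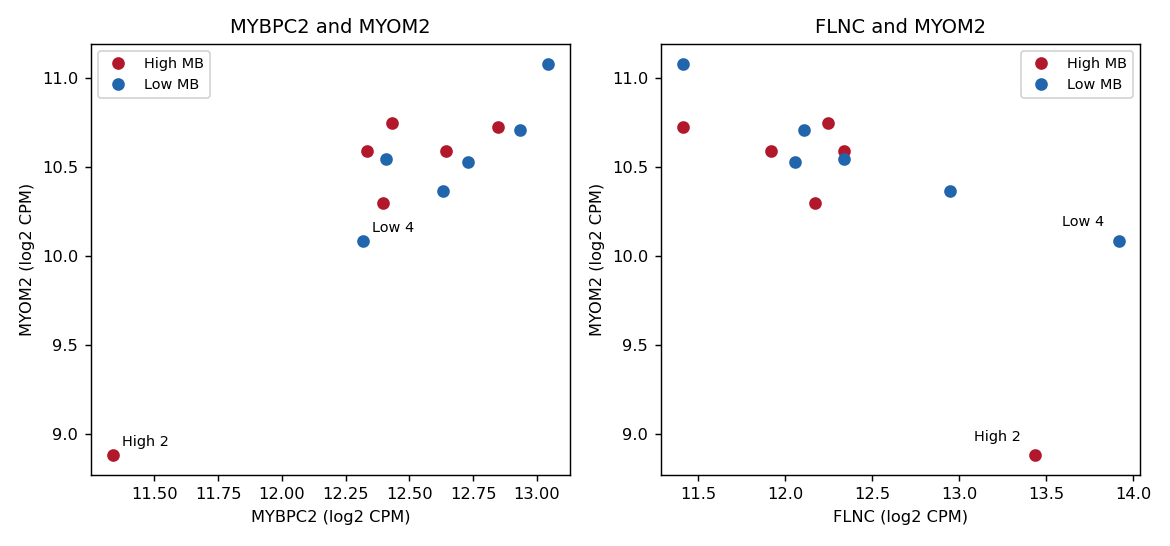
MYOM2 against MYBPC2 (left) and against FLNC (right), in log2 CPM, 1 point per pig, High MB in red and Low MB in blue. MYOM2 goes with MYBPC2 (r = 0.92) and against FLNC (r = -0.74), and High MB pig 2 lies at the end of both clouds.

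Within groups, none of the 7 genes was found to vary with muscle myoglobin content. Of 14 relations, 7 genes in each group of 6 pigs, 0 had an unadjusted p under 0.05 by the exact permutation test, r ran from -0.59 to 0.43, and the lowest adjusted p was 0.930. At 6 pigs only a strong relation could have passed. The groups form separate clusters of myoglobin content, so no r was taken across both.

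Lists of partner genes were read in the same way. Of 21 Z-disc partners tested, 6 had a log2 FC above and 15 below 0 (median -0.16), or 10 and 11 without the pigs that stood apart and 9 and 12 with library totals (median -0.052). Over all 12 pigs, 0 of the 21 had an unadjusted p under 0.05, where 8.46% of all genes tested had one. CSRP3, a Z-disc LIM protein, had the highest log2 FC (0.66, SE 0.35) and SYNPO2, an actin-bundling partner of filamin, the lowest (-0.37, SE 0.22), and neither passed. CAPZA2, which caps actin at the Z-disc, had the smallest p (log2 FC -0.24, SE 0.13). Of 13 M-band and titin partners, 3 were above and 10 below 0 (median -0.17), or 4 and 9 without the pigs that stood apart and 5 and 8 with library totals (median -0.084), from ANKRD2, a titin-binding ankyrin-repeat protein (0.55, SE 0.47), to TRIM55 (-0.37, SE 0.28), a ubiquitin ligase that binds titin at the M-band. UNC45B, a myosin chaperone, had -0.30 (SE 0.17). Of 4 genes of thin-filament ends and nebulin partners, 2 were above and 2 below 0, with LMOD2, which lengthens thin filaments, at -0.32 (SE 0.21), NEXN at -0.36 (SE 0.29) and KLHL40, a stabiliser of nebulin, at 0.15 (SE 0.51). Of 9 tested genes from the families of the 9 proteins named at the start, 5 were above and 4 below 0 (median 0.24), or 7 and 2 without the pigs that stood apart and 6 and 3 with library totals, with FLNA, the widely expressed filamin, at 0.44 (SE 0.34), MYOM3, the third myomesin, at -0.39 (SE 0.55) and PDLIM1, of the family of LDB3, at 0.29 (SE 0.15). None of these lists held a called gene.

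Markers of other cell types lay mostly above 0 in log2 FC. All 6 fibroblast markers (median log2 FC 0.65), all 5 adipocyte (0.90), all 6 myeloid and leukocyte (0.69, or 0.43 without the pigs that stood apart) and all 4 endothelial markers measured (0.28) were above 0, and of 4 smooth muscle markers 3 were (median 0.48). Their sums overlapped between the groups: fibroblast markers summed to 630.1 to 1118 CPM in the High MB and 326 to 828 CPM in the Low MB pigs, adipocyte markers to 55.3 to 228 and 35.8 to 199 CPM, and myeloid and leukocyte markers to 47.2 to 98.4 and 25.1 to 57.2 CPM. Smooth muscle markers summed to 699.7 CPM in High MB pig 6 and to 101 to 161 CPM in the other High MB pigs, and their median sum was 129 CPM in the High MB and 137 CPM in the Low MB group. COL1A2, a fibrillar collagen, had a log2 FC of 0.71 (SE 0.25), PDGFRA 0.91 (SE 0.37) and DCN 0.35 (SE 0.17). FABP4, the fatty acid binder of adipocytes, had 1.00 (SE 0.32), LEP 1.06 (SE 0.60) and PLIN1 0.63 (SE 0.61). C1QA, a complement gene of macrophages, had 0.93 (SE 0.26) and CD68 0.40 (SE 0.36), while the endothelial receptor TIE1 had 0.55 (SE 0.18) and CDH5 0.25 (SE 0.22). MYH11, the smooth muscle myosin, had 0.86 (SE 0.72), TAGLN 0.60 (SE 0.40) and CNN1 -0.12 (SE 0.45). An unadjusted edgeR p under 0.05 on the higher side was seen for 3 fibroblast, 2 adipocyte, 3 myeloid and leukocyte, 1 endothelial and 0 smooth muscle markers. Of all genes tested, 5.33% had one. None of these markers was called, and their part in the values of the 7 genes was not tested.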

How the data were processed

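Total RNA of longissimus dorsi was sequenced as 150-base read pairs from 12 unpaired libraries, 6 per group. The authors deposited counts per Ensembl gene for each pig, which the submitters' processing notes tie to FastQC, Trim Galore, HISAT2, HTSeq and Sscrofa11.1; strand settings are not given in the sources used here, so reads of antisense partners cannot be told apart. Transcript counts were not used, since nothing here pairs their IDs with genes. Symbols came from a RefSeq-based name table, which matched 14857 IDs. Rows that name no gene were left out. The upstream window of 1 gene is not reported here. Counts were filtered with filterByExpr (minimum count 10), scaled by TMM and tested with the quasi-likelihood test of edgeR 4.0.16 (R 4.3.3) over all 13373 genes, group as the only term. Called means Benjamini-Hochberg adjusted p under 0.10 and log2 FC beyond 0.58. Log2 CPM used a prior count of 2. DESeq2 1.42.0, other scalings and filters, a depth covariate and leaving out each pig were alternatives. The edgeR and DESeq2 group comparisons were tested on simulated counts. No library pair looked like a duplicate. Depth ranged from 38914271 to 91318334 gene counts, and no interval was set on counting error alone. The members and lists were chosen with earlier results of these data known. Named genes are all members and, of each list, those with the highest and lowest fold change and the smallest p, plus the 5 genes whose log2 CPM had the highest median r with the members, among those with a mean of at least 10 CPM. XIRP1, XIRP2, NRAP, CAPZA1, BAG3, CRYAB, MYOZ3 and PDLIM7 were named after their values were seen.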

Additional observations from a re-analysis of the deposited data

Results flagged for a closer look

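High MB pig 2 was far from the other 5 pigs of its group in 3 of the 20 sets of 6 values looked at (Dixon's 95% critical value), where chance flags about 1 in 20. Its MYOM2 level was 471 CPM, with the next pig at 1256 CPM. Its FLNC level was 11100.2 CPM, with the next at 5179.6 CPM. Its ratio of MYOM1 to MYOM2 per kilobase was 0.675, with the next at 0.469. This ratio holds the same MYOM2 value, and the sets share genes and pigs, so the flags are not independent. The same pig stood apart over the whole expression profile.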

How the results depend on the processing

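None of the 7 genes was called under any alternative run. Genes called numbered 29 with DESeq2 and 0 under the other alternatives run. Leaving out each pig in turn gave 0 genes called, a median log2 FC of the 7 genes from -0.26 to -0.10 and 5 to 11 pairs varying together (5 without High MB pig 6). The log2 FC ranged from -0.24 to 0.037 for MYOM2 (0.037 without High MB pig 2), from -0.26 to 0.028 for ACTN2 and from -0.64 to 0.15 for FLNC (both highest without Low MB pig 4). Without High MB pig 2 and Low MB pig 4, an alternative chosen after seeing the data, ACTN2 was at 0.062, 0 pairs passed and the median of the 7 was -0.076. The cause was not tested. Of genes with an unadjusted p under 0.05, 63.0% were higher in the High MB group, against 82.0% with upper quartile factors and 92.8% with library totals. Individual numbers did not pair the pigs (correlation of same-numbered deviations -0.21 to 0.14, with 0 of 6 High MB pigs closest to their own number), and a fit with the number as a replicate block called 0 genes, with a median of -0.20 for the 7, 0.13 for MYBPC1 and -0.19 for FLNC. Each of the 7 genes had at least 17859 reads in every pig, and with depth class as a covariate 0 of the 7 were called.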

Other observations

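Outside the set, the 5 genes whose log2 CPM followed the 7 genes most closely over the 12 pigs were ARVCF (median r 0.80), CAMK2B (0.79), ATP2B2 (0.79), SEMA6C (0.77) and TEF (0.77). Each had a negative r with at least 1 of the 7, the lowest being -0.63 for ARVCF. They share the libraries and the pigs that stood apart, so these values are a description.

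Of 14 long transcripts outside the sarcomere, 3 had a log2 FC above and 11 below 0 (median -0.13, or -0.041 with library totals and -0.074 with upper quartile factors), and 0 were called. DMD, dystrophin, had -0.38 (SE 0.14, edgeR adjusted p = 0.563), AHNAK -0.75 (SE 0.47) at a mean of under 1 CPM, and HSPG2, perlecan, 0.25 (SE 0.13).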
